A study of Sus scrofa with 23 samples.

Results

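The tumour necrosis factor (TNF) ligand and receptor superfamilies were examined in coronary artery segments of swine with atherosclerosis. Members were set by a name rule: TNF, every row whose name begins with TNFSF or TNFRSF and a number, and CD27, CD40, CD40LG, CD70, FAS, FASLG, LTA and LTB. The rule was chosen with earlier results of these data known. It gave 28 of 35228 gene names, of which 13 are ligands, 14 are receptors and 1 carries a name that fits either kind. All animals were hypercholesterolemic Yorkshire swine, and part of them were also diabetic. RNA came from 3 mm coronary segments that had been graded as mild, moderate or severe by their histology. The 23 libraries formed 5 groups: segments without diabetes graded mild (4 libraries), moderate (4) or severe (5), and diabetic segments graded moderate (6) or severe (4). Every diabetic group therefore carried hypercholesterolemia and diabetes together, and neither mild diabetic segments nor arteries of animals without hypercholesterolemia were analysed here. Age, sex, the way diabetes arose and the animal behind each segment are not given in the labels used here.

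Ligands of this family are trimeric proteins that sit on the cell surface or are shed from it, and they act by clustering their receptors. Receptors with a death domain (TNFRSF1A, FAS, TNFRSF10B, TNFRSF25, TNFRSF21) can start apoptosis or inflammatory signalling, whereas most others recruit TRAF adaptors and feed into NF-kappa B, and a few, such as TNFRSF11B, are decoys that do not signal. In the artery wall the family is known for endothelial activation by TNF, for CD40 signalling between T cells and macrophages or endothelium, and for osteoprotegerin, the decoy that restrains RANKL in bone and calcifying vessels.

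For every gene, the authors' deposited tables hold the normalized count averaged over each group and the result of a test between 2 groups. They hold no value of a single library, so group means are given in place of values by sample, and whether single libraries of 2 groups overlapped could not be seen. Steps among the low values placed the libraries between 6.72 and 15.0 × 10⁶ counted reads, and 3 reads in a whole group correspond to a mean of 0.478 to 0.822. For the 22 members whose mean over the groups was 10 or more, the standard errors imply a spread between libraries of 14.5% to 82.7% of the mean (median 28.6%). Where libraries of a group came from the same animal, p-values measure only the spread between segments. A batch or a set of animals that differed between diabetic and non-diabetic segments cannot be told apart from diabetes. Severe non-diabetic replicate 5 is given as a moderate diabetic segment by its other labels, and it stays in the severe non-diabetic mean as the authors' column holds it. Smooth muscle genes were present in every group: ACTA2, smooth muscle actin, had means of 33189.7 to 42031.7. Heart muscle markers, 16 genes that an artery wall should lack, summed to 179985 in mild, 46882 in moderate and 41960.2 in severe segments without diabetes, but to 3603 and 5164 in moderate and severe segments with diabetes. Of 13 tested, 13 fell with diabetes in moderate and 10 in severe segments, and 1 fell in severe against mild segments. Among all genes, 8.46% and 4.92% fell with diabetes in these grades, and 4.8% fell in severe against mild segments. Adipocyte markers, 6 genes, summed to 2864 to 7600.4, and 1 rose and 1 fell with diabetes in moderate segments. The part of heart muscle and fat in the results below was not tested. In whole tissue, fewer cells of a type and less RNA per cell cannot be told apart.

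Of the 28 members, 11 passed the threshold, an adjusted p under 0.05 in the authors' DESeq2 test over all genes, in at least 1 of the 6 comparisons. Against mild segments, 9 members passed, and between diabetic and non-diabetic segments of 1 grade, 8 passed. In moderate against mild segments without diabetes, 4 of 22 tested members rose and 0 fell, where 3.56% of 18561 genes rose and 1.08% fell. In severe against mild segments, 8 of 24 tested members rose and 1 fell, where 7.19% of 20294 genes rose and 4.8% fell. With diabetes, 7 of 27 tested members rose and 1 fell in moderate segments, where 8.2% of 22025 genes rose and 8.46% fell. In severe segments 5 of 24 tested members rose and 0 fell with diabetes, where 5.75% of 20869 genes rose and 4.92% fell. A member counts as tested where the authors' deposited table gives an adjusted p, which DESeq2 leaves blank at low means. The same shares over all genes apply to the counts given for lists of other genes, and they are repeated beside only some of these.

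The members leaned upward as a group in the same 4 comparisons, least for diabetes in severe segments. Their median log2 fold change was 0.55 in moderate against mild and 0.50 in severe against mild segments, beside 0.00 and -0.03 over all genes tested. For diabetes it was 0.46 in moderate and 0.26 in severe segments, beside -0.03 and 0.01 over all genes. Tested members with a positive and a negative fold change numbered 19 and 3 in moderate and 20 and 4 in severe against mild segments. For diabetes they numbered 21 and 6 in moderate, but 14 and 10 in severe segments, where 50.8% of all genes were positive. Of the 22 members with a mean of at least 10, the lowest of the 5 group means was in mild segments for 17, where 31.8% of 17509 genes at that level had theirs. The highest mean was in a diabetic group for 14 of the 22, where 45.5% of all such genes had theirs. Members that can pass at all are those with enough counts, so these counts describe the 22 and not the family. The family was also chosen with earlier results of these data known.

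**Figure D1:**
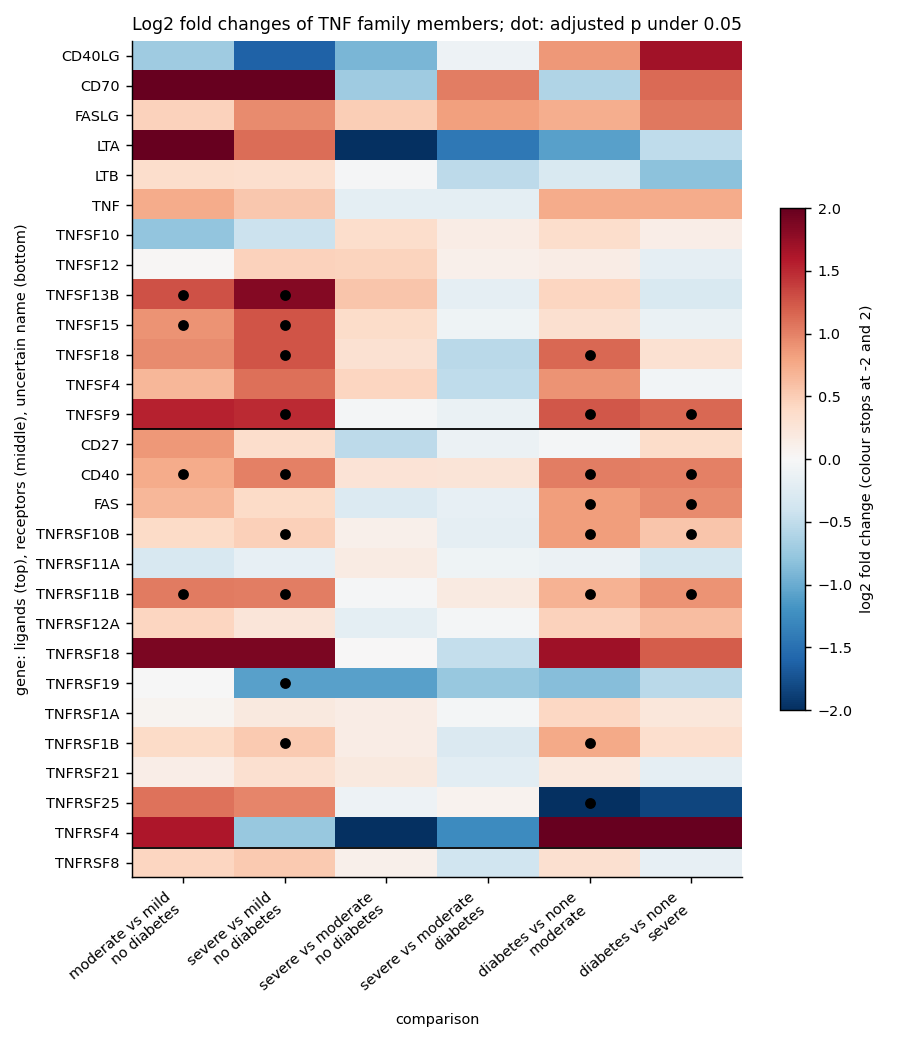
Log2 fold change (colour, limited at -2 and 2) of each of the 28 members (rows: ligands, receptors and the uncertain name) in the 6 comparisons of the authors' deposited tables (columns), with a dot where the adjusted p is under 0.05. Dots lie in the columns against mild and in the diabetes columns, and CD40 and TNFRSF11B hold one in all 4 of these.

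CD40 is the receptor through which T cells activate B cells, macrophages and endothelium. Its mean normalized count was 73.7 in mild, 124 in moderate and 149.5 in severe segments without diabetes, and 252 and 300.0 in moderate and severe segments with diabetes. Both diabetic means lay above all 3 others, and the modelled spread between libraries was 19.4% to 22.0% of the mean. In the authors' deposited tables CD40 rose by 0.74 ± 0.22 (log2, SE; adjusted p = 0.0197) in moderate and by 1.01 ± 0.21 (adjusted p = 3.43e-05) in severe against mild segments. With diabetes it rose 2.02-fold in moderate segments (log2 1.02 ± 0.19, adjusted p = 6.14e-06) and again in severe segments (log2 95% interval 0.63 to 1.38, adjusted p = 2.64e-05), per the authors' deposited tables. The 2 diabetes fold changes differed by -0.02 (95% interval -0.54 to 0.51). CD40LG, its ligand on activated T cells, had means of 6.58, 3.66 and 2.04 without diabetes and 7.34 and 6.78 with it. No comparison of CD40LG passed, and its smallest adjusted p in the authors' deposited tables was 0.0961, for diabetes in severe segments (log2 1.68 ± 0.69).

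TNFRSF11B, osteoprotegerin, is a secreted decoy receptor that binds RANKL and TRAIL. Its means were 120.3 in mild, 247 in moderate, 243 in severe, 399.6 in moderate diabetic and 452 in severe diabetic segments. In the authors' deposited tables it rose 2.06-fold in moderate (log2 1.04 ± 0.25, adjusted p = 0.00212) and 2.03-fold in severe segments (1.02 ± 0.24, adjusted p = 0.00055) against mild ones. The step came between mild and moderate, since the moderate and severe means without diabetes were close to each other. With diabetes it rose further, by 0.70 ± 0.22 (log2, adjusted p = 0.0168) in moderate and 0.90 ± 0.23 (adjusted p = 0.00398) in severe segments in the authors' deposited tables. TNFRSF11A, the RANK receptor that drives osteoclast formation, did not follow this pattern: its means were 408, 326, 363, 302 and 283 in the same order. All 4 log2 fold changes of TNFRSF11A in these comparisons were negative, from -0.36 to -0.11, and none passed in the authors' deposited tables. A row that RefSeq names TNFSF11 (RANKL) by its gene identifier, outside the name rule, had low means of 3.26, 12.6, 12.1, 11.8 and 5.55. It rose by 1.95 ± 0.69 (log2, adjusted p = 0.0413) in severe against mild segments in the authors' deposited table.

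Genes of osteoclasts, which are also used by lipid-laden macrophages, rose in part where osteoprotegerin rose. Of 15 such genes, 10 of 14 tested rose in moderate against mild segments and 10 of 15 in severe against mild segments, with a median log2 fold change of 1.57 and 1.91. With diabetes 7 of the 15 rose and 1 fell in moderate segments, and 4 rose and 1 fell in severe segments. Among all genes, 3.56% and 7.19% rose against mild, and 8.2% and 5.75% with diabetes, in moderate and severe segments. The osteoclast gene that fell with diabetes was CALCR, the calcitonin receptor, in both grades. It went from 365 to 202 in moderate (log2 -0.85 ± 0.25, adjusted p = 0.00653) and from 612 to 258 in severe segments (-1.25 ± 0.25, adjusted p = 9.64e-05), per the authors' deposited tables. MMP9, a gelatinase, had means of 67.2 in mild and 3910 in severe segments, a log2 rise of 5.87 ± 0.44 (adjusted p = 5.12e-37) in the authors' deposited table. The summed level of the 15 genes was 4219 in mild, 13578 in moderate, 17790.1 in severe, 25148 in moderate diabetic and 29033 in severe diabetic segments. CTSK was the largest part of each sum, with means of 2668, 7969, 10013, 13609 and 16443 in this order, and it did not pass for diabetes. The part of the 15 genes in the osteoprotegerin result was not tested.

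**Figure D2:**
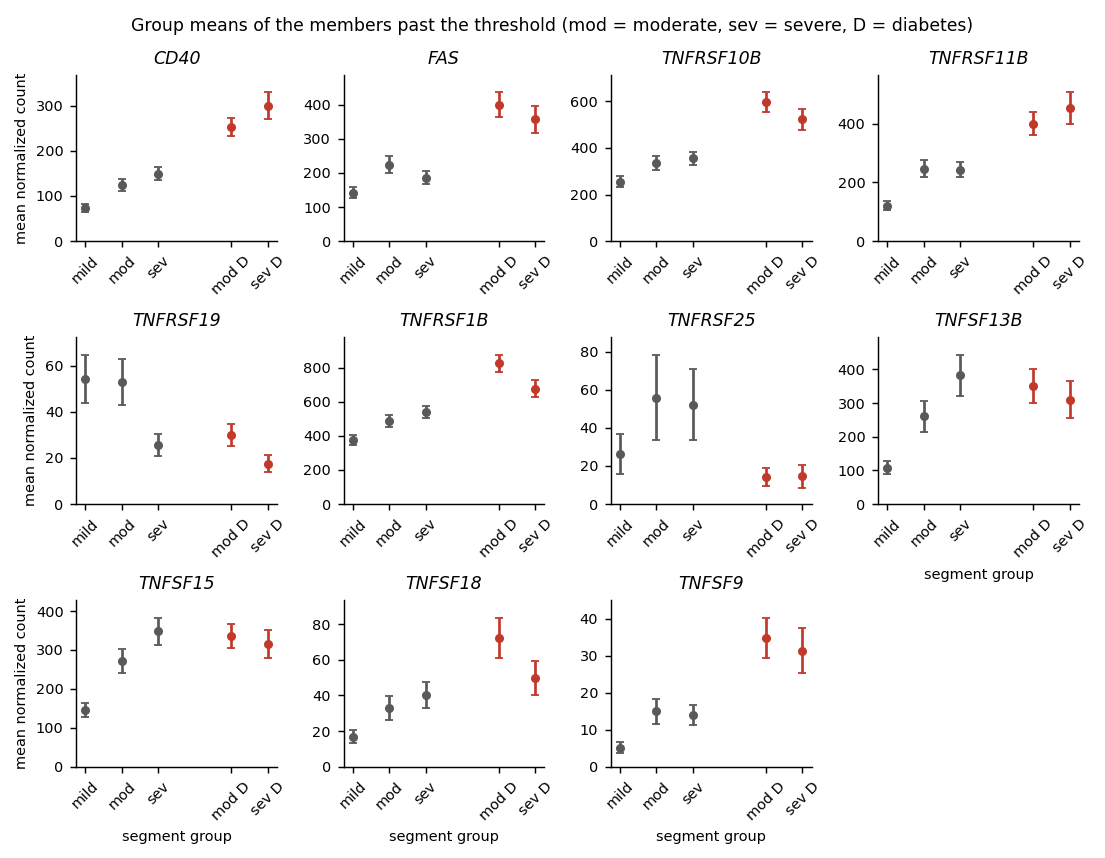
Mean normalized count (y axis, from 0) of the 11 members past the threshold in each of the 5 segment groups (x axis; grey without and red with diabetes), with bars for the standard error of the mean implied by the authors' fit. CD40, FAS, TNFRSF10B and TNFRSF11B stand highest in both diabetic groups, TNFSF13B and TNFSF15 are highest in severe segments without diabetes, and TNFRSF25 is lowest in both diabetic groups.

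Death receptors FAS and TNFRSF10B rose with diabetes, and TNFRSF25 fell. FAS, the receptor of Fas ligand, had means of 142 in mild, 224 in moderate and 185 in severe segments without diabetes and of 399 and 357 with it. Its diabetes fold changes in the authors' deposited tables were 1.78 in moderate (log2 0.83 ± 0.21, adjusted p = 0.0015) and 1.92 in severe segments (0.94 ± 0.22, adjusted p = 0.000982). Against mild, FAS did not pass in moderate (0.66 ± 0.24, adjusted p = 0.0871) or severe segments (0.39 ± 0.22, adjusted p = 0.288) in the authors' deposited tables. FASLG, the ligand carried by cytotoxic lymphocytes, had means of 1.74 to 6.87 and passed in no comparison, with its adjusted p blank in moderate against mild segments. TNFRSF10B, a death receptor for TRAIL, had means of 255, 335 and 356 without diabetes and of 597 and 524 with it. In the authors' deposited tables it rose by 0.48 ± 0.17 (log2, adjusted p = 0.0438) in severe against mild segments, by 0.84 ± 0.16 (adjusted p = 1.6e-05) with diabetes in moderate and by 0.56 ± 0.17 (adjusted p = 0.0165) with diabetes in severe segments. The first of these calls is lost (adjusted p = 0.0645) when p-values are adjusted over all genes with a p. TNFSF10, the TRAIL ligand, had its highest mean in mild segments: 567, against 329, 421, 419 and 463 in the others. None of its comparisons passed, and the modelled spread was 46.4% to 46.6%.

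TNFRSF25, a death receptor found mainly on T cells, went the other way. Its means were 26.4, 56.0 and 52.3 without diabetes and 14.0 and 14.6 with it. The authors' deposited table gives a 4.03-fold fall with diabetes in moderate segments (log2 -2.01 ± 0.75, 95% interval -3.49 to -0.54, adjusted p = 0.0464), and this call is lost (adjusted p = 0.0635) when p-values are adjusted over all genes with a p. The fold change in severe segments was similar in size and did not pass (-1.84 ± 0.79, adjusted p = 0.115) in the authors' deposited table. Its modelled spread between libraries, 79.6% to 82.7% of the mean, was the widest among the 22 members. Among 9 measured genes of the death pathway behind these receptors, 0 passed against mild. With diabetes 3 rose in moderate and 1 in severe segments, where 8.2% and 5.75% of all genes rose. The 3 were CASP10, an initiator caspase, CFLAR, which blocks caspase-8, and RIPK3, a kinase of necroptosis. CASP10 rose from 1744 to 3069 (log2 0.82 ± 0.18, adjusted p = 0.000125) in moderate and from 1831 to 2797 (0.61 ± 0.18, adjusted p = 0.0147) in severe segments, per the authors' deposited tables.

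Ligands TNFSF13B and TNFSF15 passed against mild, and neither passed for diabetes. TNFSF13B, the B cell survival factor BAFF made by myeloid cells, had means of 107 in mild, 261 in moderate, 382 in severe, 350.1 in moderate diabetic and 309.7 in severe diabetic segments. It rose 2.43-fold in moderate (log2 1.28 ± 0.36, adjusted p = 0.0151) and 3.56-fold in severe (1.83 ± 0.35, adjusted p = 5.76e-06) against mild segments in the authors' deposited tables. Its diabetes fold changes there were 0.43 (95% interval -0.22 to 1.07) in moderate and -0.30 (-0.97 to 0.37) in severe segments on the log2 scale. TNFSF15, a ligand of TNFRSF25 made by endothelium and myeloid cells, had means of 146, 272, 347, 336 and 316. It rose by 0.89 ± 0.23 (log2, adjusted p = 0.0060) in moderate and by 1.25 ± 0.22 (adjusted p = 9.31e-07) in severe against mild segments in the authors' deposited tables. Its receptor TNFRSF25 had fold changes of 2.12 and 1.98 in the same comparisons of the authors' deposited tables, which did not pass with standard errors of 0.82 and 0.78 (log2). For diabetes the authors' deposited tables give TNFSF15 a log2 fold change of 0.31 (95% interval -0.10 to 0.72) in moderate and -0.14 (-0.56 to 0.29) in severe segments.

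Macrophage markers rose with both ligands against mild segments, and some also rose with diabetes, where neither ligand passed. Of 14 such genes, 6 rose in moderate against mild, and 8 rose and 1 fell in severe against mild segments, while 7 and 2 rose with diabetes in moderate and severe segments. Their summed level was 14221 in mild, 20331 in moderate, 26994 in severe, 28578 in moderate diabetic and 31675 in severe diabetic segments. Among all genes, 3.56% and 7.19% rose against mild, and 8.2% and 5.75% with diabetes, in moderate and severe segments. For BAFF, B and plasma cell markers are given too. Of 13, 5 to 8 were tested in each comparison against mild or for diabetes, and 1 to 2 rose. With diabetes in severe segments 1 fell (BLK, log2 -2.36 ± 0.83, adjusted p = 0.044, authors' deposited table). MS4A1 (CD20), which defines B cells, had a mean under 1 in every group. Among 11 endothelial markers, 1 fell in moderate against mild segments and 1 rose and 1 fell in severe against mild segments. Over all genes, 1.08% fell in the first comparison, and 7.19% rose and 4.8% fell in the second. The part of these cells in the results was not tested.

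Costimulatory ligands formed another group. TNFSF9 (4-1BB ligand), which sustains activated T cells, had means of 5.12 in mild, 15.0 in moderate, 14.1 in severe, 34.8 in moderate diabetic and 31.4 in severe diabetic segments. In the authors' deposited tables it rose 2.82-fold in severe against mild segments (log2 1.50 ± 0.50, adjusted p = 0.0284) and 2.36-fold with diabetes in moderate segments (1.24 ± 0.39, adjusted p = 0.0148). In severe segments it rose 2.21-fold with diabetes (1.14 ± 0.40, adjusted p = 0.0425) in the authors' deposited table, a call that is lost when p-values are adjusted over all genes (0.0610) or fold changes are recentred (0.0666). Moderate against mild segments gave a log2 fold change of 1.54 ± 0.52, which did not pass (adjusted p = 0.0582, authors' deposited table). TNFSF18, the ligand of GITR, a receptor on T cells, had means of 16.9, 33.2 and 40.4 without diabetes and of 72.3 and 49.7 with it. It rose 2.40-fold in severe against mild segments (log2 1.26 ± 0.41, adjusted p = 0.0215) and 2.22-fold with diabetes in moderate segments (1.15 ± 0.37, adjusted p = 0.0165) in the authors' deposited tables. In severe segments its diabetes fold change was 0.30 (log2, 95% interval -0.44 to 1.04) in the authors' deposited table. TNFSF4 (OX40 ligand), which lies next to TNFSF18 on chromosome 9, had means of 7.16, 11.4, 15.3, 20.7 and 14.7. It narrowly missed the threshold in severe against mild (log2 1.10 ± 0.40, adjusted p = 0.0502) and for diabetes in moderate segments (0.90 ± 0.34, adjusted p = 0.0524) in the authors' deposited tables.

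Receptors of these ligands on T cells had low counts. TNFRSF18 (GITR) had means of 0.233 to 3.73 and TNFRSF4 (OX40) of 0 to 5.62, with the highest mean of each in moderate diabetic segments. The row that RefSeq names TNFRSF9 (4-1BB) had means of 2.20 to 6.19. None of these receptors passed, but the adjusted p of each was blank in at least 1 comparison. For TNFRSF4 with diabetes in severe segments it was blank at means of 0 and 2.27 (log2 3.67 ± 1.42, DESeq2 test, unadjusted p = 0.00945, authors' deposited table). Of 14 T cell markers tested, 6 rose and 1 fell with diabetes in each grade, with median log2 fold changes of 1.17 in moderate and 1.23 in severe segments. Against mild, 0 rose and 1 fell in moderate segments, and 3 rose and 1 fell in severe segments. With diabetes, 8.2% of all genes rose and 8.46% fell in moderate segments, and 5.75% rose and 4.92% fell in severe segments. IL7R, a receptor of memory and naive T cells, rose from 25.5 to 184 (log2 2.84 ± 0.41, adjusted p = 1.59e-09) in moderate and from 33.3 to 142 (2.09 ± 0.41, adjusted p = 5.84e-05) in severe segments with diabetes in the authors' deposited tables. CD8B fell with diabetes, in the authors' deposited table from 265 to 73.9 in moderate segments (log2 -1.84 ± 0.49, adjusted p = 0.00297). Because of CD8B, with a mean of 869.5 in mild segments, the summed level of the 14 genes was highest there: 1105 against 577, 650 and, with diabetes, 853 and 808. Heart muscle markers were also highest in mild segments and lower with diabetes, and their part in the CD8B values was not tested. Neutrophil markers had a summed level of 86.6 in mild, 377 in moderate, 338 in severe, 914 in moderate diabetic and 777 in severe diabetic segments. Of 6 tested, 4 rose in moderate and 2 in severe against mild segments. With diabetes 3 rose in moderate and 4 in severe segments. In moderate against mild segments TNFSF9 (log2 1.54), TNFSF18 (0.95) and TNFSF4 (0.66) were above 0 and did not pass in the authors' deposited table. Only TNFSF9 of them passed with diabetes in severe segments. The part of neutrophils and T cells in the results was not tested.

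TNF itself passed in no comparison. Its means were 12.6 in mild, 21.5 in moderate, 18.0 in severe, 34.6 in moderate diabetic and 30.0 in severe diabetic segments. Both diabetic means lay above the others, and the authors' deposited tables give a diabetes fold change of 1.67 in moderate (log2 95% interval -0.08 to 1.55, adjusted p = 0.233) and 1.67 in severe segments (-0.10 to 1.59, adjusted p = 0.287). With a modelled spread of 42.9% to 48.9%, changes of that size were not resolved. TNFRSF1B, the receptor that responds to TNF on the cell surface, had means of 374, 488 and 539 without diabetes and of 824 and 677 with it. It rose by 0.52 ± 0.14 (log2, adjusted p = 0.00514) in severe against mild segments and by 0.76 ± 0.14 (adjusted p = 3.36e-06) with diabetes in moderate segments in the authors' deposited tables. In severe segments its diabetes fold change of 0.33 ± 0.14 did not pass (adjusted p = 0.119, authors' deposited table). TNFRSF1A, the death domain receptor of soluble TNF, had means of 744, 775, 856, 1028 and 999. It passed in no comparison, with its smallest adjusted p for diabetes in moderate segments (log2 0.41 ± 0.17, adjusted p = 0.0676) in the authors' deposited table.

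Lymphotoxins LTA and LTB lie beside TNF on chromosome 7, with gaps of 1.4 kb and 2.4 kb in Sscrofa11.1, and neither passed in any comparison. LTB, which joins LTA on the cell surface, had means of 11.8, 15.3, 15.2, 12.4 and 8.24, lowest in severe diabetic segments where the diabetes fold change was -0.82 ± 0.45 (log2, adjusted p = 0.247, authors' deposited table). LTA was listed at 0 in mild segments and at 0.195 to 1.69 elsewhere, with its adjusted p blank against mild and for diabetes. Their receptor LTBR, outside the name rule, had means of 432, 546, 620.2, 716 and 740.1 and rose by 0.52 ± 0.16 (log2, adjusted p = 0.012) in severe against mild segments in the authors' deposited table.

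Genes that release TNF or act behind its receptors were read from lists. Of 4 measured shedding genes, RHBDF2 (iRhom2, which escorts the TNF-cleaving protease ADAM17) rose in all 4 comparisons against mild or for diabetes. RHBDF2 had means of 127 in mild, 253 in moderate and 298 in severe segments and of 565 and 435 with diabetes, and the rise with diabetes was 1.16 ± 0.16 (log2, adjusted p = 5.37e-10) in moderate and 0.54 ± 0.17 (adjusted p = 0.0191) in severe segments in the authors' deposited tables. ADAM17 rose with diabetes, by 0.78 ± 0.18 (adjusted p = 0.000308) and 0.59 ± 0.18 (adjusted p = 0.0191) on the log2 scale in the authors' deposited tables. Of 20 receptor adaptors and kinases, 0 passed in moderate against mild and 4 rose in severe against mild segments, while 5 rose with diabetes in moderate and 4 in severe segments. Over all genes, 7.19% rose in severe against mild segments, and 8.2% and 5.75% rose with diabetes in moderate and severe segments. BIRC3 (cIAP2), a ubiquitin ligase at the receptors, rose with diabetes in both grades, by 0.78 ± 0.24 (adjusted p = 0.0116) and 0.73 ± 0.25 (adjusted p = 0.0392) on the log2 scale in the authors' deposited tables. RIPK1, the kinase that sits at the fork between survival and death, rose by 0.60 ± 0.15 in severe against mild segments (log2, adjusted p = 0.00194) and by 0.60 ± 0.15 with diabetes in moderate segments (adjusted p = 0.000761) in the authors' deposited tables.

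NF-kappa B genes rose mostly with diabetes in moderate segments. Of 9 subunits and inhibitors, 6 rose there, REL, BCL3, NFKBIE and RELB among them, 2 rose with diabetes in severe segments, and 1 and 2 rose in moderate and severe against mild. Among all genes, 8.2% and 5.75% rose with diabetes, and 3.56% and 7.19% against mild, in moderate and severe segments. REL, a subunit active in lymphocytes and myeloid cells, rose by 0.78 ± 0.13 (log2, adjusted p = 1.4e-07) from 474 to 816 with diabetes in moderate segments, per the authors' deposited table. BCL3, a nuclear partner of NF-kappa B, rose from 34.9 to 137 there (log2 1.96 ± 0.39, adjusted p = 2.36e-05, authors' deposited table). Among 7 tested linear ubiquitin genes and feedback inhibitors, 3 rose with diabetes in moderate segments and 0 passed in the other comparisons. TNFAIP3 (A20), which edits ubiquitin chains to end the signal, was 1 of them, with a rise of 1.18 ± 0.30 from 219 to 495 (log2, adjusted p = 0.00136, authors' deposited table). Whether these lists differed between grades was not tested.

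Genes known to be induced by TNF, though also by other cytokines, had the most members past the threshold for diabetes among the 6 lists of genes around the TNF receptors. Of 14 tested, 3 rose in moderate against mild segments, 3 rose and 2 fell in severe against mild, and with diabetes 10 rose in moderate and 9 in severe segments. Their median log2 fold change with diabetes was 1.41 in moderate and 1.27 in severe segments, beside -0.03 and 0.01 over all genes. With diabetes, 8.2% of all genes rose in moderate and 5.75% in severe segments. IL8, a neutrophil attractant, rose from 33.1 to 348 (log2 3.40 ± 0.71, adjusted p = 7.35e-05) in moderate and from 10.5 to 279 (4.72 ± 0.75, adjusted p = 2.16e-07) in severe segments with diabetes, per the authors' deposited tables. CCL2, which attracts monocytes, rose from 635 to 2043 (1.68 ± 0.39, adjusted p = 0.00049) and from 340 to 2109.5 (2.63 ± 0.41, adjusted p = 8.49e-08) in the authors' deposited tables. ICAM1, an endothelial adhesion molecule, rose by 1.37 ± 0.25 (adjusted p = 4.54e-06) and 0.96 ± 0.26 (adjusted p = 0.00598) on the log2 scale in the authors' deposited tables.

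**Figure D3:**
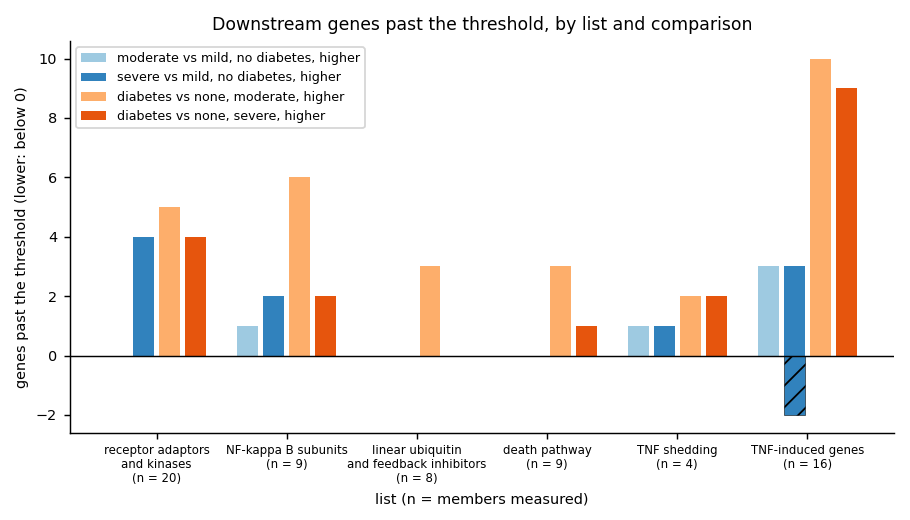
Number of genes past the threshold (y axis; bars above 0 higher, hatched bars below 0 lower) in 6 lists of genes around the TNF receptors (x axis, with the number measured), in the comparisons against mild (blue) and for diabetes (orange). The TNF-induced list has the tallest bars, 10 and 9 genes with diabetes, and its 2 lower genes are in severe against mild segments.

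TNFRSF19 (TROY), a receptor studied mainly in skin and nerve, was the only member past the threshold downward in the authors' test against mild segments. Its means were 54.3 in mild, 53.1 in moderate and 25.7 in severe segments without diabetes and 29.9 and 17.5 with it. The authors' deposited table gives a 2.12-fold fall in severe against mild segments (log2 -1.09 ± 0.38, adjusted p = 0.0395), a call lost (adjusted p = 0.0583) when p-values are adjusted over all genes with a p. With diabetes its fold change was -0.86 ± 0.36 in moderate (log2, adjusted p = 0.0849) and -0.54 ± 0.40 in severe segments (adjusted p = 0.43) in the authors' deposited tables, and neither passed. Of 9 contractile smooth muscle markers, 2 fell in severe against mild segments and 1 in each diabetes comparison. Over all genes, 4.8% fell in severe against mild segments, and 8.46% and 4.92% fell with diabetes in moderate and severe segments. The summed levels of the 9 markers were 147993, 126560, 107704, 105953 and 113689, and their part was not tested.

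The remaining members with a mean of at least 10 did not pass in any comparison. TNFRSF12A (Fn14), the receptor of TWEAK, had means of 280.1, 379 and 330.4 without diabetes and of 522 and 509.8 with it. It just missed the threshold for diabetes in severe segments (log2 0.62 ± 0.23, adjusted p = 0.0523, authors' deposited table). TNFSF12 (TWEAK) had means between 86.4 and 119, the highest in severe segments without diabetes. TNFRSF21, a death receptor, ranged from 418 to 529, and CD27, a T and B cell receptor, from 9.61 to 17.4. CD70, the ligand of CD27, had means of 0.235 to 3.81. A row named TNFRSF8 had means of 33.0 to 55.4. Its name is uncertain: the RefSeq table gives TNFRSF8 as another name of TNFSF8, the CD30 ligand, and assigns a different row to the CD30 receptor by gene identifier. That row had means of 1.04, 6.06 and 12.1 without diabetes and of 18.8 and 13.7 with it, and it rose by 3.58 ± 0.85 (log2, adjusted p = 0.00066) in severe against mild and by 1.68 ± 0.51 (adjusted p = 0.0108) with diabetes in moderate segments in the authors' deposited tables. With diabetes in severe segments it did not pass (log2 0.18 ± 0.49, adjusted p = 0.872, authors' deposited table).

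Other family genes outside the name rule moved in both directions. RELT, an orphan receptor, rose by 1.42 ± 0.40 (log2, adjusted p = 0.00552) in severe against mild and by 1.50 ± 0.34 (adjusted p = 0.000354) with diabetes in moderate segments in the authors' deposited tables. With diabetes in severe segments RELT did not pass (log2 0.12 ± 0.35, adjusted p = 0.877, authors' deposited table). The row that RefSeq names TNFSF14 (LIGHT), a ligand of LTBR, had means of 2.63, 3.14 and 4.45 without diabetes and of 12.9 and 13.2 with it, and it rose with diabetes in moderate segments (log2 2.08 ± 0.66, adjusted p = 0.0157, authors' deposited table). In severe segments it did not pass (log2 1.63 ± 0.62, adjusted p = 0.0723, authors' deposited table). EDA, ectodysplasin, fell from 979 in mild to 562 in moderate and 573 in severe segments (log2 -0.80 ± 0.24, adjusted p = 0.029, and -0.78 ± 0.23, adjusted p = 0.0115, authors' deposited tables). EDAR, its receptor, fell with diabetes from 20.3 to 3.06 in moderate segments (log2 -2.69 ± 0.56, adjusted p = 7.76e-05) and from 13.7 to 0.755 in severe segments (-4.27 ± 0.96, adjusted p = 0.000565) in the authors' deposited tables. In the severe diabetic group 3 reads correspond to a mean of 0.715, so EDAR was near the floor there, with a modelled spread of 124%. EDAR had its highest mean, 27.7, in mild segments, where heart muscle markers were also highest, and their part was not tested. The row that RefSeq names TNFRSF17 (BCMA), a BAFF receptor of plasma cells, had means of 43.1, 36.0 and 45.9 without diabetes and of 72.1 and 81.3 with it, and it did not pass (adjusted p = 0.0745 in moderate and 0.195 in severe segments, authors' deposited tables).

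Severe and moderate segments were not separated by any member at either diabetes status. Without diabetes 0 of 23 tested members passed in the authors' DESeq2 test, 2 had an unadjusted p under 0.05, and 0.0203% of 19716 genes passed in either direction. The 2 were TNFRSF19 (log2 -1.08 ± 0.38, p = 0.00455, adjusted p = 0.652) and TNFSF12 (0.44 ± 0.20, p = 0.0288), per the authors' deposited table. With diabetes 0 of 28 passed, 2 had an unadjusted p under 0.05, and 0.00332% of 30151 genes passed. These were TNFRSF1B (log2 -0.28 ± 0.14, p = 0.0357) and TNFRSF19 (-0.76 ± 0.39, p = 0.0476), both with an adjusted p of 1 in the authors' deposited table. The members' median log2 fold change was 0.10 without and -0.15 with diabetes, and 21 of 28 were negative in the second case.

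Whether diabetes acted differently in moderate and severe segments was tested as the difference of both diabetes fold changes, which share no library. None of the 22 members passed (two-sided Wald test with Benjamini-Hochberg adjustment over 17509 genes), 1 had an unadjusted p under 0.05, and 0.0228% of all genes passed. That member was TNFRSF1B, whose rise with diabetes was smaller in severe than in moderate segments by -0.43 ± 0.20 on the log2 scale (Wald test on the authors' DESeq2 fold changes, p = 0.0302, adjusted p = 0.999). TNFSF4 (-0.95, 95% interval -1.90 to 0.01) and TNFSF18 (-0.85, -1.88 to 0.18) had the widest gaps among the ligands. The difference was negative for 15 and positive for 7 of the 22, with a median of -0.23 beside 0.04 over all genes. Severe non-diabetic replicate 5, whose labels conflict, enters the severe side of this difference, and its part was not tested. For FAS the difference was 0.11, with a 95% interval of -0.49 to 0.70.

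**Figure D4:**
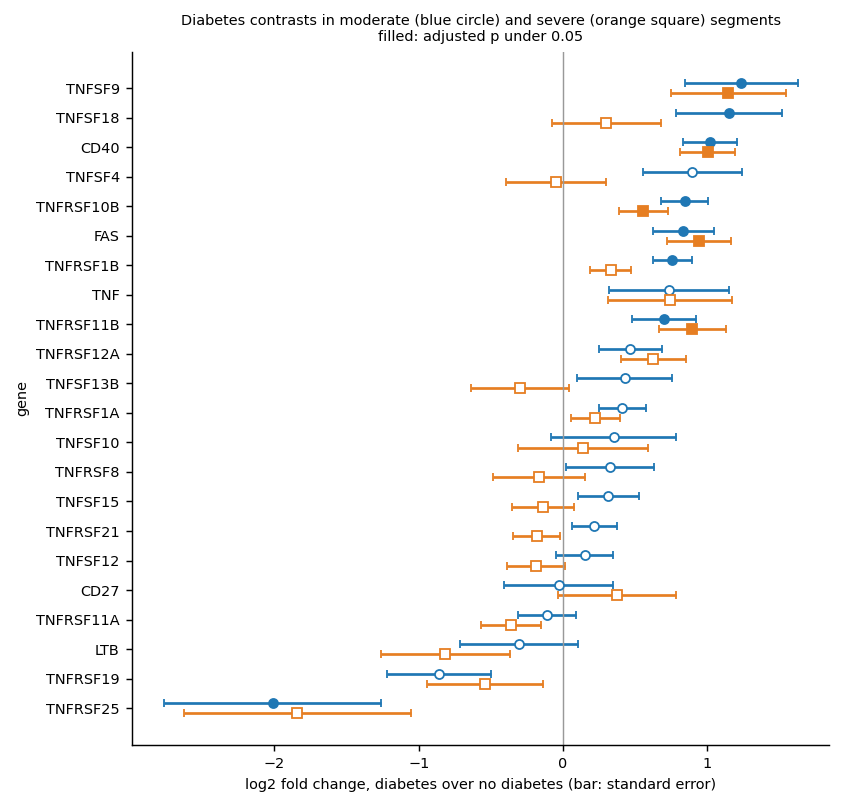
Log2 fold change of diabetic over non-diabetic segments (x axis, bars are standard errors) for the 22 members with a mean of at least 10 (y axis), in moderate (blue circles) and severe segments (orange squares), filled where the adjusted p is under 0.05. CD40, FAS, TNFRSF10B, TNFRSF11B and TNFSF9 are filled in both grades, and TNFRSF25 lies at the far left in both and is filled in moderate segments.

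Position was compared for the 26 members that matched the RefSeq table of Sscrofa11.1. FASLG, TNFSF18 and TNFSF4 lie in a row on chromosome 9, with gaps of 372.3 kb and 74.5 kb, and all 3 code for ligands of lymphocyte receptors. TNFSF9 and CD70 lie 46.9 kb apart on chromosome 2, and TNFRSF18 and TNFRSF4 lie 4.5 kb apart on chromosome 6. CD27 and TNFRSF1A lie 117.1 kb apart on chromosome 5. TNFSF18 passed in severe against mild and for diabetes in moderate segments, the comparisons in which its neighbour TNFSF4 narrowly missed the threshold. FASLG, CD70, TNFRSF18, TNFRSF4 and LTA had means under 10, too low to compare their calls with those of their neighbours.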

How the data were processed

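Poly-A selected RNA of coronary segments was sequenced, per the labels' protocols, and read against the genome build Sscrofa 11.1 with DESeq2 as the test, per the submitters' processing notes, with aligner, counter and versions not given in the sources used here. In all, the authors deposited 6 tables, 1 per comparison, of 35252 lines each, of which 24 with a date in place of a name were left out. The authors deposited for each gene a mean normalized count per group, a signal that is never negative. The log2 fold change with its standard error, the p-value and its adjusted form are the authors' own, deposited from DESeq2. The test score that the authors deposited in some tables has the opposite sign to the fold change, so directions follow the fold change and the means.

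A p recomputed from fold change and standard error differed by at most 4.39e-15. With no counts per library to fit, the deposited tests were taken as they are. Standard errors were resolved into 1 variance per group (largest residual 4.53e-11), which gave the modelled spread between libraries, and 95% intervals are 1.96 standard errors to either side. The difference of the diabetes contrasts was tested for genes averaging 10 or more over the groups, and its script was tested on simulated data. All members past an adjusted p of 0.05 are named with their means, the others with their range, and from each list at most 4 genes of smallest adjusted p in a comparison. The 16 lists hold 193 genes, of which 177 matched a row. Members and lists were chosen with earlier results of these data known. Alternatives were adjustment over all genes with a p, over the genes averaging 10 or more, recentring on the median of genes that reach 50 in each group, only the highest of numbered copies and, added after the data were seen, leaving out the row named TNFRSF8. Levels were not compared between genes, since transcript lengths were not used here, and no sequence is shown. Python 3.11.15, pandas 2.3.3, numpy 2.4.6, scipy 1.17.1 and matplotlib 3.10.9 were used.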

Additional observations from a re-analysis of the deposited data

How the results depend on the processing

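Counts of members past the threshold stayed within 1.5 times of the reported ones under every alternative run: 4 in moderate against mild, 7 to 10 in severe against mild, 7 to 9 for diabetes in moderate and 4 to 6 in severe segments, and 0 in both comparisons of severe with moderate and in the difference of the diabetes contrasts. Of 26 member values past the threshold, 22 kept it when p-values were adjusted over all genes with a p, 26 when genes with a mean under 10 were left out and 25 after recentring, and none changed direction. The filter on means added TNFSF4 in severe against mild and for diabetes in moderate segments and TNFRSF12A for diabetes in severe segments, and recentring added TNFSF4 in severe against mild. Recentring shifted fold changes by at most 0.08 (log2). No member has numbered copies, and leaving out the row named TNFRSF8 changed no count. Leaving out single libraries was not run, since the files used here hold no value per library. No paired analysis was possible because the tables carry no values or replicate numbers of single libraries. Depth limits the 6 members with a mean under 10, whose adjusted p is blank in at least 1 comparison each.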
